A study of Mus musculus with 77 samples.

Results

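The genes of sterol synthesis and cholesterol regulation were followed in messenger RNA purified from tagged striatal neurons of single mice. A list of 28 genes was used, and every probe set whose only annotated symbol was on the list counted as a member. Of those genes, 27 were found, with 59 probe sets, out of 18194 genes with a single-symbol probe set in the whole table. Acat2 is not analysed here. All 27 genes, and 52 of their 59 probe sets, passed the filter on low values, which left out the lowest 40% of probe sets by mean. Members were listed by their place in the pathway, but with earlier results of these data known.

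Cholesterol is built from acetyl groups, first through the mevalonate arm to the isoprenoid building blocks, then through squalene to lanosterol, and last by a series of trimming, reducing and shifting steps on the sterol rings. The transcription factor SREBP-2, made by Srebf2, drives most of these enzymes when sterols in the endoplasmic reticulum run low, and the INSIG proteins hold its escort SCAP back when sterols are plentiful. The adult brain makes its own cholesterol, much of it in glia, and neurons dispose of the excess by hydroxylation through Cyp46a1 and by export through transporters such as ABCA1.

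The 77 arrays each held RNA of 1 adult male mouse aged 9 to 14 weeks on a C57BL/6J background and carrying a bacterial artificial chromosome transgene in which a dopamine receptor promoter drives the ribosomal protein fusion EGFP-L10a. Line CP73 (Drd1::EGFP-L10a) marks direct pathway spiny projection neurons (dSPN) and line CP101 (Drd2::EGFP-L10a) marks indirect pathway ones (iSPN). Ribosome-bound RNA was captured with antibodies against the tag (TRAP) from the dorsal striatum on the operated side. In each line, mice with a one-sided 6-hydroxydopamine (6-OHDA) lesion of the medial forebrain bundle, which destroys dopamine axons, received chronic saline, low-dose levodopa or high-dose levodopa, and mice with a mock lesion (ascorbate and saline) received chronic saline. Levodopa started at 1 mg/kg (low) or 3 mg/kg (high) for days 1 to 3 and went to 2 mg/kg or 6 mg/kg for days 4 to 9, and each injection also held 12 mg/kg benserazide, which blocks conversion outside the brain. The dSPN groups were lesion with saline (n = 11), low dose (n = 12), high dose (n = 11) and mock (n = 10). The iSPN groups were lesion with saline (n = 7), low dose (n = 8), high dose (n = 8) and mock (n = 10). Lesioned mice had been selected for successful lesions by behaviour, and each cell type comes from 1 transgenic line, so line and cell type cannot be told apart.

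The deposited values were log2 expression from 1.34 to 14.45, with array medians of 4.31 to 4.42, and all differences given here are on that log2 scale. On the mock arrays the difference between dSPN and iSPN was 1.73 for Drd1 and -4.87 for Drd2, and all 9 dSPN markers were called higher and all 4 iSPN markers lower, as the labels say. Glial RNA was also in the captures. The mean of 13 oligodendrocyte markers ranged over arrays from 6.85 to 8.15 with lesion and saline, 5.67 to 6.90 at the low dose, 5.58 to 6.83 at the high dose and 6.55 to 7.64 with mock lesion in dSPN. The same mean ranged from 7.40 to 8.78, 6.87 to 8.80, 6.80 to 7.56 and 7.29 to 8.59 in the iSPN groups in that order. In dSPN, 12 of 13 oligodendrocyte and 8 of 13 astrocyte markers were called lower at the high dose relative to saline, against 0 of 13 of each in iSPN (limma; at an unadjusted p under 0.05, 5 oligodendrocyte markers and 1 astrocyte marker were lower and 1 astrocyte marker higher). Glia express sterol genes too, so values with a glial marker mean as a covariate are given for several members in dSPN and between the lines. No such value per gene is given for the iSPN levodopa calls or for genes outside the member list. Markers of other neurons also varied. The mean of 9 dSPN markers in iSPN captures averaged 7.36 with mock, 6.82 with lesion and saline, 6.96 at the low dose and 6.73 at the high dose. The mean of 3 cholinergic interneuron markers averaged 5.15 to 5.76 over the iSPN groups and 3.78 to 4.04 over the dSPN groups. The part of such RNA in the results was not tested. Each array was scaled to nearly the same distribution, so fewer cells of a type in the capture and less of an RNA per cell cannot be told apart.

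A gene was called when its adjusted p was under 0.05 (limma, Benjamini-Hochberg over 13271 genes, two-sided). High-dose levodopa relative to saline in lesioned dSPN gave the most member calls of the comparisons with saline or mock. There 9 members were called higher and 4 lower, 13 of 27 (48.1%), against 45.6% of all genes called in that comparison (20.1% higher and 25.5% lower). At the low dose in dSPN 7 were higher and 4 lower, 11 of 27 (40.7%), against 34.1% of all genes (15.1% higher and 19% lower). In iSPN 2 members were higher and 1 lower at the high dose, beside 9.86% of all genes (6.27% higher and 3.59% lower), and 1 was higher at the low dose, beside 4.18% (2.41% higher). Lesion relative to mock gave 3 members in dSPN (2.48% of all genes, 1.84% lower) and 2 in iSPN (6.2% of all genes, 3.01% lower), all lower. These shares lie near the share of all genes called, or rest on few members, so the counts do not set the sterol genes apart. What follows is therefore about which steps differed and in which direction. The median member difference at the high dose was 0.22 in dSPN and 0.17 in iSPN (log2), beside -0.04 and 0.01 for all genes tested.

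**Figure D1:**
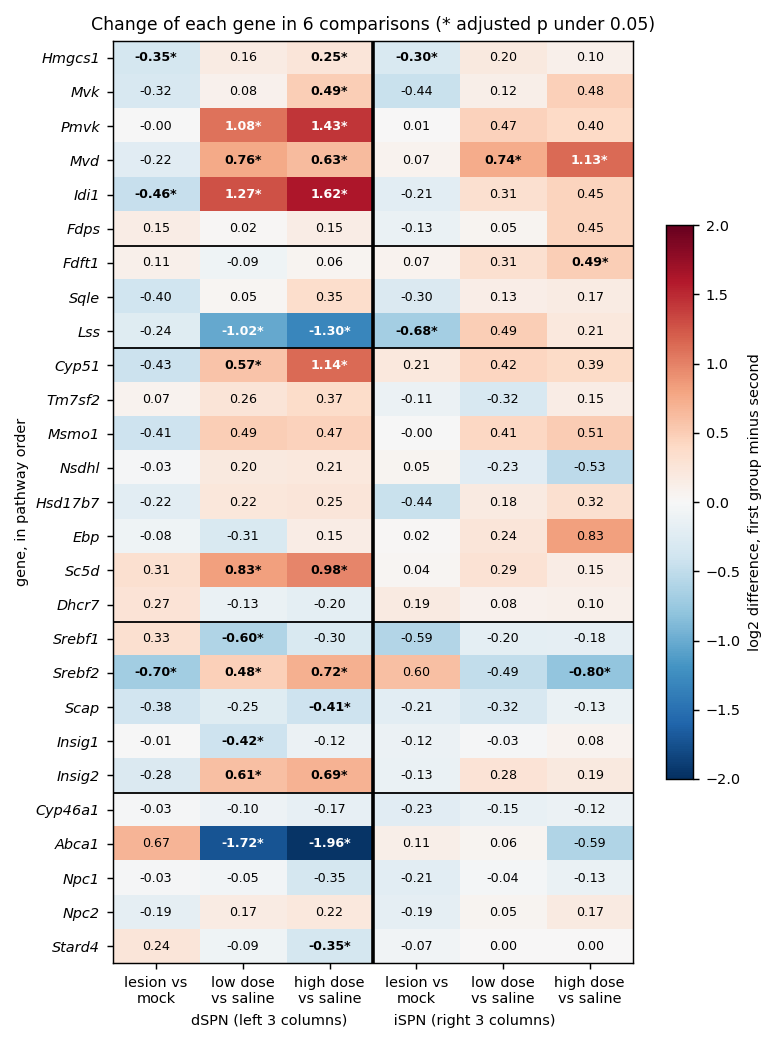
Log2 difference of each of the 27 genes (rows, in pathway order) in 6 comparisons (columns, dSPN left and iSPN right), red where the lesioned or levodopa-treated group was higher than its mock or saline group. An asterisk marks an adjusted p under 0.05. Idi1, Pmvk, Mvd and Cyp51 are red in the dSPN levodopa columns, where Lss and Abca1 are blue, as at the high dose in Idi1 (1.62) and Abca1 (-1.96).

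The start of transcription of 4 members is printed because they differ in how they moved. Hmgcs1, Idi1 and Srebf2 were called lower with the lesion and higher at the high dose in dSPN, while Lss was lower at both doses, the same lesioned saline arrays entering each of these differences. Windows run from 250 bases before to 50 bases after the start, from RefSeq on GRCm38.p6, all on the plus strand. Capitals mark CCAAT on either strand (written ATTGG on the reverse), the core bound by NF-Y, and TCACNCCA on either strand, a core of the sterol regulatory element. Hmgcs1 lies at chr13:119690101-119690400, Idi1 at chr13:8885356-8885655, Srebf2 at chr15:82147019-82147318 and Lss at chr10:76531355-76531654.
Hmgcs1: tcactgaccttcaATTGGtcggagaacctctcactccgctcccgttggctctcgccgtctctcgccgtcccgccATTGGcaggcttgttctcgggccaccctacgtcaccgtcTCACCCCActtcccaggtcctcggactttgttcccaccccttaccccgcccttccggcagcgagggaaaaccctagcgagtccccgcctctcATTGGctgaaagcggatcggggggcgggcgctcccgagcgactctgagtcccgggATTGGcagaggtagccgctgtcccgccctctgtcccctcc
Idi1: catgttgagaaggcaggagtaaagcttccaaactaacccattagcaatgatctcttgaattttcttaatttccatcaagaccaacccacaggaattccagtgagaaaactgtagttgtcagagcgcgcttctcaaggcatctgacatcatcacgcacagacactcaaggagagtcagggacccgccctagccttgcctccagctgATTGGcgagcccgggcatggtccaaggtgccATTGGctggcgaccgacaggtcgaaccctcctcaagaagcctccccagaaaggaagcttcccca
Srebf2: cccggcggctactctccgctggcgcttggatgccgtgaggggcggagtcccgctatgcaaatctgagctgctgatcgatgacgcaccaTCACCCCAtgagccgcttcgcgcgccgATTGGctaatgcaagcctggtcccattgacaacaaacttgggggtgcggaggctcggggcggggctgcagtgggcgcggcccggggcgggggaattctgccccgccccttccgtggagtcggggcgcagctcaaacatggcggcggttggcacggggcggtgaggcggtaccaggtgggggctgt
Lss: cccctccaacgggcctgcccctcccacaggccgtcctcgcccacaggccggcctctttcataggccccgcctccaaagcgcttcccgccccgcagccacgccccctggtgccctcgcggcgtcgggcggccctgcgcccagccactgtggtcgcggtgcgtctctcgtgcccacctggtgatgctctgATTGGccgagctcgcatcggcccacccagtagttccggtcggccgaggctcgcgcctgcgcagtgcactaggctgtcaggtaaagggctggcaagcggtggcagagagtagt
The Hmgcs1 window holds CCAAT 4 times, at -237, -176, -45 and 11 counted from the start, and the Idi1 window 2 times, at -45 and -14. Srebf2 holds a single CCAAT at -135, and Lss a single one at -62. Over the 22 measured members with a window, CCAAT stood in at least 1 window of 20 genes (90.9%), beside 41.06% of all 27025 genes and 42.32% of the 17492 coding genes. By window it stood in 21 of 30 member windows and in 37.41% of all 32851. TCACNCCA, a motif chosen after the data were seen, stood in Hmgcs1, Srebf2 and Msmo1, 13.6% of member genes beside 4.97% of all genes. A longer form of the sterol regulatory element stood in 0 of the 22, beside 0.27% of all genes, and it contains the shorter core. CACGTG, the E box, stood in 6 (27.3%, beside 8.09%), TGANTCA, the AP-1 motif, in 2 (9.1%, beside 8.97%) and TGACGTCA, the cyclic AMP response element, in 0 (beside 2.03%). A match is a run of letters, not a shown binding site.

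The mevalonate arm had members called at both doses in dSPN. At the high dose 5 of its 6 measured genes were called higher than with saline, beside 20.1% of all genes. At the low dose 3 of 6 were, beside 15.1% of all genes, and no call was lower. The median difference of the 6 was 0.46 at the low dose and 0.56 at the high dose. Idi1, the isomerase that makes dimethylallyl from isopentenyl diphosphate, had lowest, median and highest log2 values of 7.40, 7.96 and 8.55 with lesion and saline, 8.83, 9.24 and 9.75 at the low dose, 9.34, 9.64 and 9.87 at the high dose and 7.93, 8.51 and 8.81 with mock lesion in dSPN. No array of either dose group reached down to a saline or mock array. Relative to saline the difference was 1.27 ± 0.12 (SE; adjusted p = 1.12e-13) at the low dose and 1.62 ± 0.13 (SE; adjusted p = 3.2e-18) at the high dose, a 3.07-fold level. Both of its probe sets were called higher at both doses.

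Pmvk, phosphomevalonate kinase, also separated the groups. Its values were 9.44, 9.70 and 10.13 with lesion and saline, 10.36, 10.81 and 11.38 at the low dose, 10.84, 11.15 and 11.60 at the high dose and 9.42, 9.79 and 9.97 with mock lesion in dSPN. All levodopa arrays lay above all saline and mock arrays. Relative to saline Pmvk was higher by 1.08 ± 0.12 (SE; adjusted p = 1.38e-11) at the low dose and by 1.43 ± 0.12 (SE; adjusted p = 1.96e-16) at the high dose. The high-dose level was 2.7 times the saline level. Mvd, the diphosphomevalonate decarboxylase, had 5.63, 6.23 and 6.68 with lesion and saline, 6.72, 6.99 and 7.32 at the low dose, 6.21, 6.90 and 7.44 at the high dose and 5.88, 6.44 and 6.90 with mock lesion. All 12 low-dose arrays were above all saline arrays, whereas the high-dose group overlapped saline. The differences were 0.76 ± 0.14 (SE; adjusted p = 1.33e-05) at the low dose and 0.63 ± 0.15 (SE; adjusted p = 0.000252) at the high dose.

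Mvk, mevalonate kinase, averaged 7.24 ± 0.22 at the high dose and 6.75 ± 0.27 with saline in dSPN (SD, n = 11 each), and 8 of the 11 high-dose arrays lay above every saline array. The difference was 0.49 ± 0.14 (SE; adjusted p = 0.00328), and at the low dose 0.08 (not called). Hmgcs1, the synthase that makes HMG-CoA, differed least among the called genes of this arm, averaging 11.45 ± 0.15 at the high dose and 11.20 ± 0.20 with saline, a difference of 0.25 ± 0.08 (SE; adjusted p = 0.00637). Its groups overlapped, with 4 of 11 high-dose arrays above all saline arrays. Of its 4 probe sets, 3 were called higher at each dose. Read from its probe set with the highest mean, Hmgcs1 was not called at the low dose. Fdps, farnesyl diphosphate synthase, gave differences of 0.02 and 0.15 at the low and high dose in dSPN (neither called).

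**Figure D2:**
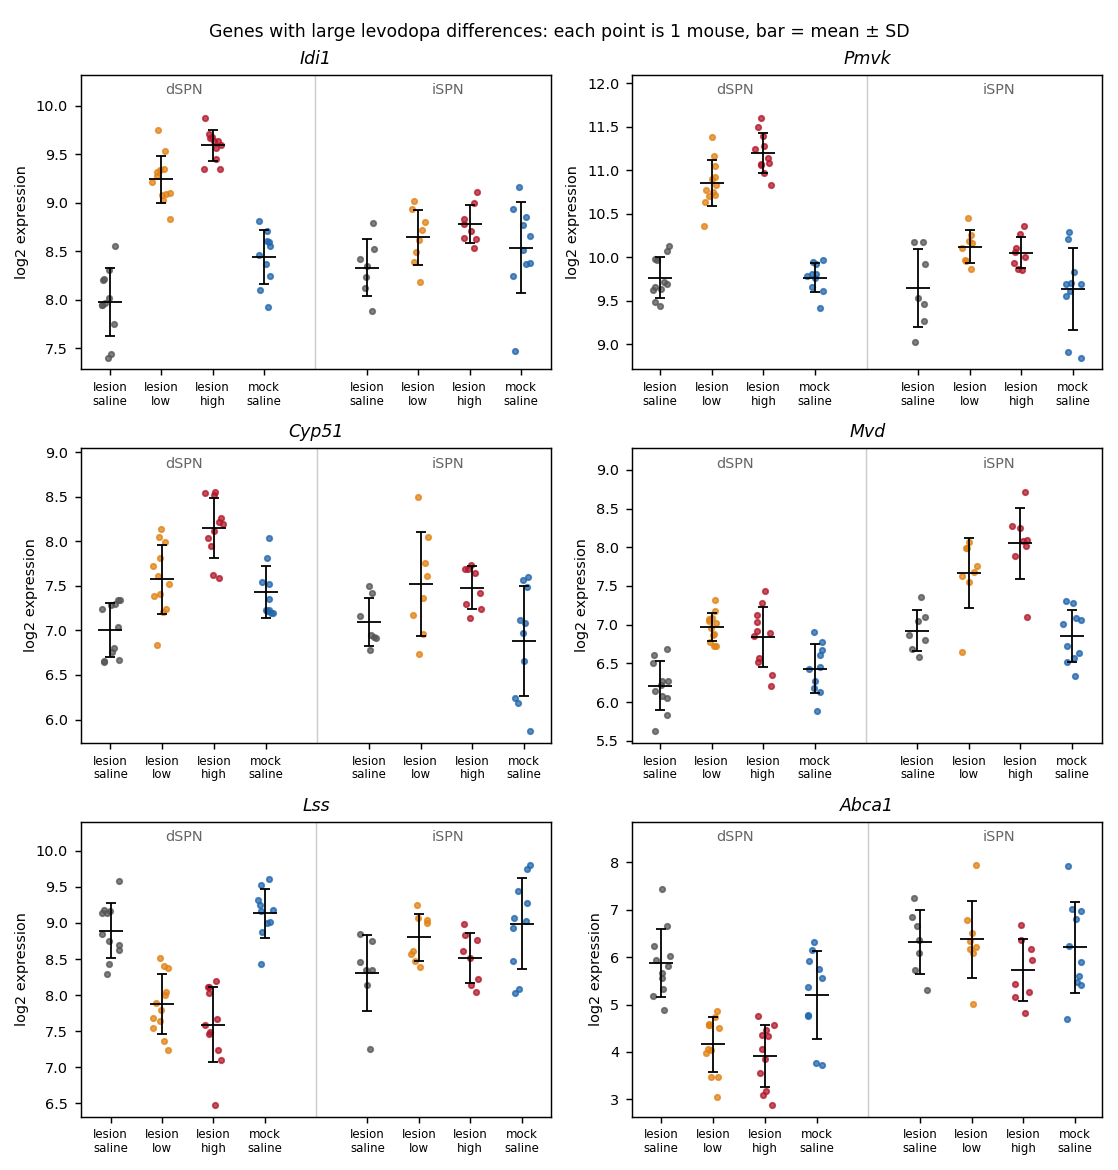
Log2 expression of Idi1, Pmvk, Cyp51, Mvd, Lss and Abca1 in each of the 77 arrays (points, 1 mouse each) by line, lesion and drug, with the group mean and SD as bars. For Idi1 and Pmvk in dSPN all low- and high-dose points lie above all saline points, and for Lss and Abca1 all high-dose points lie below them.

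Of the 3 genes from squalene to lanosterol, Lss was called in dSPN, lower at both doses. Fdft1, squalene synthase, was -0.09 and 0.06 relative to saline at the low and high dose in dSPN, and Sqle, squalene epoxidase, 0.05 and 0.35 (none called). Lss, lanosterol synthase, which closes the sterol rings, had values of 8.30, 8.84 and 9.58 with lesion and saline, 7.24, 7.84 and 8.51 at the low dose, 6.48, 7.59 and 8.19 at the high dose and 8.43, 9.17 and 9.62 with mock lesion in dSPN. Every high-dose array lay below every saline array, and 9 of the 12 low-dose arrays did. The differences were -1.02 ± 0.18 (SE; adjusted p = 6.91e-06) at the low dose and -1.30 ± 0.19 (SE; adjusted p = 1.93e-08) at the high dose, where the level was 0.405 of the saline level. The probe set that stands for Lss carries the suffix that marks sequence shared by several transcripts, as does that of Mvd. Those that stand for Fdft1 and Hsd17b7 carry the suffix for possible cross-hybridisation. The other 2 probe sets of Lss gave -1.26 and -1.53 at the high dose, and all 3 were called lower at both doses. Of these other 2, 1 had a low mean of 4.70 over all arrays.

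After lanosterol, 2 of 8 genes were called higher at each dose in dSPN, the same 2 both times. Of all genes 15.1% were called higher at the low dose and 20.1% at the high dose, so this count does not set the step apart. Cyp51, lanosterol 14-alpha demethylase, had 6.65, 7.04 and 7.34 with lesion and saline, 6.84, 7.56 and 8.13 at the low dose, 7.59, 8.19 and 8.56 at the high dose and 7.19, 7.29 and 8.03 with mock lesion. High-dose arrays all lay above saline arrays, while the low-dose group overlapped saline. The differences were 0.57 ± 0.17 (SE; adjusted p = 0.00464) and 1.14 ± 0.17 (SE; adjusted p = 3.7e-08), and Cyp51 was the only member called between the doses in dSPN, 0.57 ± 0.17 (SE; adjusted p = 0.0218), where 6.8% of all genes were called. The difference between doses with run as a block was 0.53 (adjusted p = 0.411), and other settings called 0 to 4 members there. Of its 3 probe sets 2 were called higher at each dose, and the third gave -0.06 at the low dose and 0.26 at the high dose. The 2 probe sets that do not stand for the gene averaged 3.90 and 3.86 over all arrays, close to the 3.55 filter.

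Sc5d, the sterol C5 desaturase, averaged 7.40 ± 0.62 at the low dose (n = 12), 7.56 ± 0.44 at the high dose and 6.58 ± 0.40 with saline (n = 11 each) in dSPN, with differences of 0.83 ± 0.24 (SE; adjusted p = 0.00536) and 0.98 ± 0.25 (SE; adjusted p = 0.000772). At each dose 9 arrays exceeded every saline array, and 1 of 2 probe sets was called. Over all arrays the 2 averaged 6.65 and 3.65, the latter close to the 3.55 filter. The other 6 genes were called at neither dose in either line. They were Tm7sf2 (C14 reductase), Msmo1 (C4 methyl oxidase), Nsdhl and Hsd17b7 (C4 demethylation), Ebp (the sterol isomerase) and Dhcr7 (the reductase that makes cholesterol from 7-dehydrocholesterol). Their dSPN differences at the high dose ran from -0.20 for Dhcr7 to 0.47 for Msmo1. The 3 probe sets of Hsd17b7 did not share a sign there, at -0.41 to 0.25.

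Among the 5 regulators, Insig2 and Srebf2 rose in dSPN at the high dose and Scap fell. Insig2, one of the sterol sensors that retain SCAP, had 7.97, 8.73 and 8.87 with lesion and saline, 8.62, 9.25 and 9.67 at the low dose, 8.89, 9.28 and 9.77 at the high dose and 8.55, 8.94 and 9.21 with mock lesion. All high-dose arrays lay above all saline arrays, and 10 of 12 low-dose arrays did. The differences were 0.61 ± 0.14 (SE; adjusted p = 0.000309) and 0.69 ± 0.14 (SE; adjusted p = 3.71e-05), with all 3 probe sets called at both doses. Its paralog Insig1, itself a classic SREBP target, averaged 7.13 ± 0.35 at the low dose (n = 12) and 7.55 ± 0.39 with saline (n = 11), -0.42 ± 0.14 (SE; adjusted p = 0.0135), and was not called at the high dose (-0.12).

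Srebf2 ranged over 6.23, 7.47 and 8.15 with lesion and saline, 7.25, 7.96 and 8.64 at the low dose, 7.12, 8.25 and 8.64 at the high dose and 7.08, 8.02 and 8.88 with mock lesion in dSPN. The groups overlapped, with 6 of 11 high-dose arrays above every saline array, and the high-dose and mock groups covered nearly the same range. Relative to saline the differences were 0.48 ± 0.19 (SE; adjusted p = 0.0408) and 0.72 ± 0.19 (SE; adjusted p = 0.00158). Its other probe set gave 0.22 and 0.18 and was not called. Scap, the escort of the SREBPs, averaged 7.03 ± 0.36 at the high dose and 7.44 ± 0.43 with saline (n = 11 each), -0.41 ± 0.16 (SE; adjusted p = 0.0255). Srebf1, whose products favour fatty acid genes, averaged 3.61 ± 0.38 at the low dose and 4.21 ± 0.32 with saline, -0.60 ± 0.20 (SE; adjusted p = 0.0158), a level close to the 3.55 filter.

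Of the 5 turnover and transport genes, 2 were called lower at the high dose and 1 at the low dose in dSPN. Of all genes 25.5% and 19% were called lower there, so these few calls do not set the group apart. Abca1, the exporter that loads cholesterol onto apolipoproteins, had 4.88, 5.82 and 7.43 with lesion and saline, 3.05, 4.29 and 4.86 at the low dose, 2.89, 4.05 and 4.77 at the high dose and 3.72, 5.46 and 6.32 with mock lesion in dSPN. No levodopa array of either dose reached the lowest saline array, though they overlapped the mock group. The differences from saline were -1.72 ± 0.31 (SE; adjusted p = 6.02e-06) and -1.96 ± 0.32 (SE; adjusted p = 3.08e-07). The high-dose level was 0.257 of the saline level, and all 3 probe sets were called lower at both doses. These levels are low, since the lowest arrays of both dose groups lay below the 3.55 filter. The other probe sets of Abca1 averaged 4.18 and 3.63 over all arrays. The size of the fold and the agreement of the probe sets are therefore less certain. Stard4, a sterol carrier protein, was -0.35 ± 0.13 (SE; adjusted p = 0.0246) at the high dose, with 1 of 3 probe sets called. Cyp46a1, the neuronal cholesterol 24-hydroxylase, was -0.10 and -0.17 at the low and high dose, and the lysosomal exporters Npc1 (-0.05 and -0.35) and Npc2 (0.17 and 0.22) were likewise not called.

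Glial markers and markers of the other spiny neuron class moved with these dSPN results. The median change of the 13 oligodendrocyte markers was -1.02 at the low dose and -1.28 at the high dose, and of the 13 astrocyte markers -0.54 and -0.57. The astrocyte marker mean covered 6.15 to 6.98 at the high dose and 6.86 to 7.50 with saline. With the mean of the oligodendrocyte markers as a covariate 10 members were called at the high dose, all among the 13. Idi1 was then 1.87, Pmvk 1.20, Cyp51 1.09 and Lss -1.27. Abca1 was -0.96 (adjusted p = 0.0402) in place of -1.96, and Mvk 0.15 (adjusted p = 0.553) in place of 0.49. Srebf2 (0.54, adjusted p = 0.0923) and Stard4 (-0.32, adjusted p = 0.167) were also lost. At the low dose 5 members were then called, 4 of them among the 11 called without the covariate. Abca1 (-0.84, adjusted p = 0.0729), Insig2 (0.43, adjusted p = 0.0587) and Cyp51 (0.53, adjusted p = 0.0554) were lost. So were Sc5d (0.67, adjusted p = 0.104), Srebf2 (0.33, adjusted p = 0.347), Insig1 (-0.26, adjusted p = 0.301) and Srebf1 (-0.29, adjusted p = 0.444). With the astrocyte mean 13 members were called at the high dose, 12 of them among the 13, and Mvk (0.29, adjusted p = 0.154) was again lost. Of the 4 iSPN markers, 3 were called lower in dSPN captures at each dose and 1 was called higher at the high dose. Their mean covered 7.34 to 8.06 with lesion and saline, 6.66 to 7.75 at the low dose and 6.71 to 7.96 at the high dose. These means and the dose moved together, and the part of RNA from glia or iSPN in the results was not tested further. Markers shared by both spiny neuron classes were called lower for 7 of 8 at the high dose, median -0.25.

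Title numbers fell into 7 stretches with rising animal numbers, called runs here, whose meaning the labels do not state. The high-dose and saline dSPN arrays met in 1 run (9 against 6 arrays). There Idi1 was 1.48 (adjusted p = 1.34e-07), Pmvk 1.48, Lss -1.14, Abca1 -1.81 and Insig2 0.55, all still called, as were 10 of the 13 in all. Low-dose and saline dSPN arrays shared no run. With run as a block only Idi1, Pmvk, Mvd and Lss were called at the low dose, and Abca1 was -0.98 (adjusted p = 0.205).

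Several members have more than 1 probe set, and each was also fitted on its own. Of the 52 member probe sets, 25 were called at the high dose in dSPN (17 higher, 8 lower), 23 at the low dose and 6 with the lesion, beside 44.9%, 33.4% and 1.99% of all probe sets. In iSPN the counts were 8, 3 and 2 in the same order, beside 8.71%, 3.77% and 5.39%. Probe sets of 1 gene read the same RNA and are not independent.

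**Figure D3:**
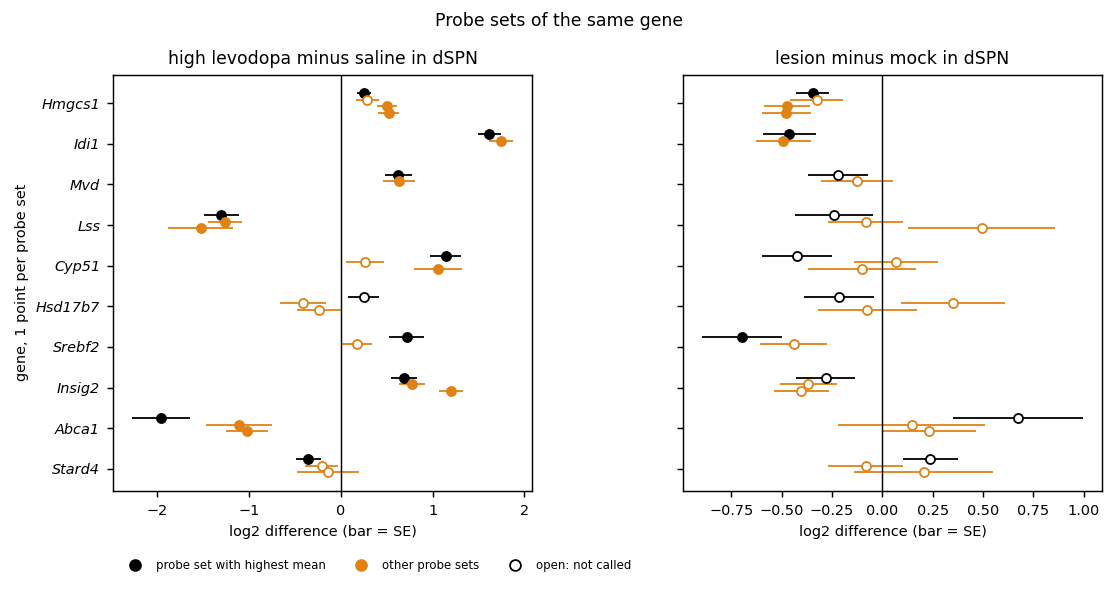
Log2 difference and SE of each tested probe set of 10 genes in dSPN, for high-dose levodopa minus saline (left) and lesion minus mock (right), filled where called. Points of Idi1, Lss, Insig2 and Abca1 lie on 1 side of zero on the left, while those of Hsd17b7 lie on both sides.

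In iSPN the high dose gave 3 calls among the members, 2 of them higher. Mvd had 6.58, 6.87 and 7.35 with lesion and saline, 6.65, 7.72 and 8.07 at the low dose, 7.10, 8.09 and 8.72 at the high dose and 6.34, 6.87 and 7.30 with mock lesion. Apart from 1 array in each dose group, all levodopa arrays lay above all saline arrays. The differences were 0.74 ± 0.18 (SE; adjusted p = 0.00598) and 1.13 ± 0.18 (SE; adjusted p = 3.67e-06), the high-dose level being 2.19 times the saline level, with both probe sets called. Fdft1 averaged 10.62 ± 0.21 at the high dose (n = 8) and 10.13 ± 0.20 with saline (n = 7), 0.49 ± 0.13 (SE; adjusted p = 0.00665). Of its 4 probe sets 2 were called and the other 2 gave 0.00. The 4 averaged 10.28, 9.10, 4.50 and 3.60 over all arrays, the lowest close to the 3.55 filter. Srebf2 was lower, at 7.37 ± 0.26 at the high dose against 8.17 ± 0.45 with saline, -0.80 ± 0.24 (SE; adjusted p = 0.0188), with both probe sets called lower.

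Idi1 (0.45, adjusted p = 0.0502) and Mvk (0.48, adjusted p = 0.0594) missed the threshold at the high dose in iSPN. High-dose and saline iSPN arrays met in 1 run as 8 against 2, where Mvd was 1.18 (adjusted p = 0.156), Fdft1 0.33 and Srebf2 -0.42, none called. Ebp, not called over all arrays at 0.83, was 1.90 there (adjusted p = 0.0233) and 1.50 with run as a block (adjusted p = 0.0483). With run as a block Mvd stayed called at both doses, and Fdft1 (0.30) and Srebf2 (-0.65) did not. Low-dose and saline iSPN arrays met as 8 against 4, where Mvd was 0.76 (adjusted p = 0.33).

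The effect of the high dose was compared between lines by an interaction term, dSPN minus iSPN, and 7 members were called, where 25% of all genes were. Idi1 differed by 1.17 ± 0.20 (SE; adjusted p = 3.3e-06) and Pmvk by 1.03 ± 0.19 (SE; adjusted p = 2.23e-05), both more positive in dSPN, with iSPN differences of 0.45 and 0.40. Lss, at 0.21 in iSPN, differed by -1.51 ± 0.30 (SE; adjusted p = 4.76e-05). Cyp51 differed by 0.75 ± 0.27 (SE; adjusted p = 0.0284) and Abca1 by -1.37 ± 0.50 (SE; adjusted p = 0.0347), beside 0.39 and -0.59 in iSPN. Srebf2 moved in opposite directions in the lines, 0.72 in dSPN and -0.80 in iSPN, an interaction of 1.51 ± 0.30 (SE; adjusted p = 7.33e-05). Its other probe set gave 0.18 in dSPN (not called) and -0.67 in iSPN. Fdft1 differed by -0.43 ± 0.17 (SE; adjusted p = 0.0445), more positive in iSPN. With the mean of probe sets Fdft1 was -0.20 (adjusted p = 0.0832) and Cyp51 0.34 (adjusted p = 0.221), neither called. That mean takes in low probe sets of both genes, such as 3.60 for Fdft1 and 3.86 for Cyp51 over all arrays. Mvd, called in both lines, gave -0.51 (adjusted p = 0.0986).

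At the low dose 5 members passed the same interaction test, beside 14.8% of all genes. They were Pmvk (0.61), Idi1 (0.95), Lss (-1.51), Srebf2 (0.97) and Abca1 (-1.78). With run as a block Idi1 (0.90) and Lss (-1.51) stayed called, while Pmvk was 0.37 (adjusted p = 0.491), Srebf2 0.66 (adjusted p = 0.409) and Abca1 -0.78 (adjusted p = 0.596). The oligodendrocyte markers passed the same test for 5 of 13 at the high dose and 7 of 13 at the low dose, all more negative in dSPN. With their mean as a covariate at the low dose, the same 2 stayed called, and Pmvk (0.40, adjusted p = 0.222), Srebf2 (0.81, adjusted p = 0.105) and Abca1 (-0.88, adjusted p = 0.278) did not. With that covariate the Abca1 interaction was -0.75 (adjusted p = 0.26) at the high dose, while Idi1 (1.32), Pmvk (0.88), Lss (-1.49) and Srebf2 (1.41) stayed called. At the high dose Cyp51 (0.70, adjusted p = 0.181), Fdft1 (-0.24, adjusted p = 0.521) and Abca1 (-1.47, adjusted p = 0.116) were not called with run as a block.

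**Figure D4:**
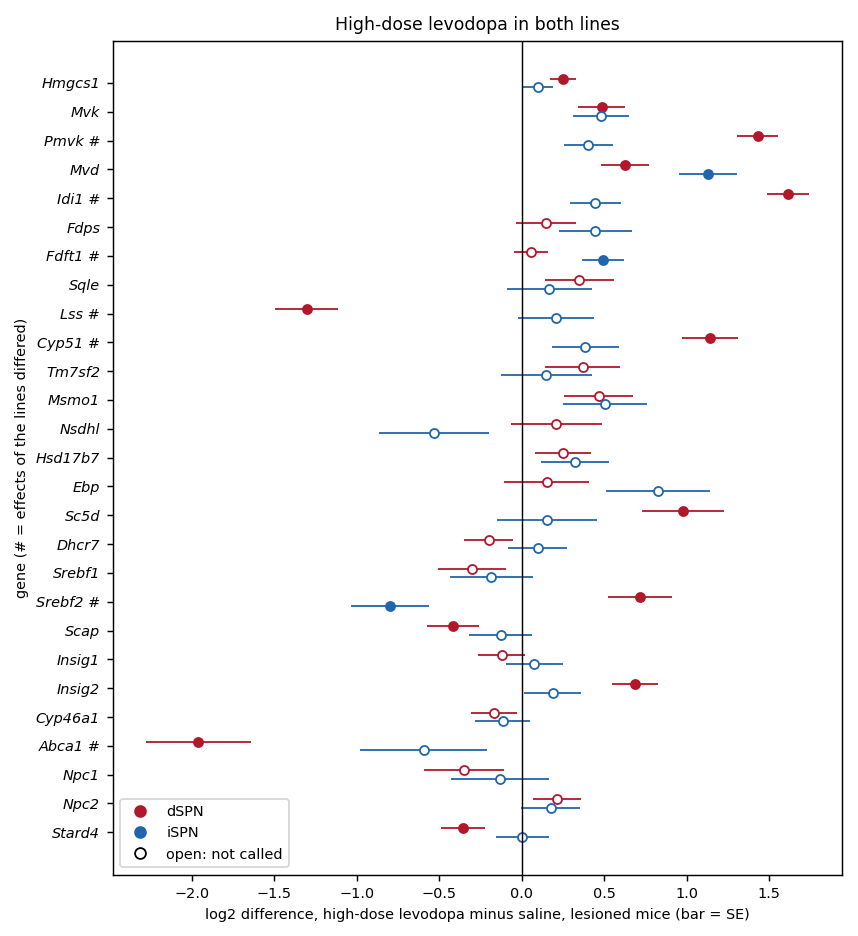
Log2 difference with its SE for high-dose levodopa minus saline in lesioned mice, for each gene in dSPN (red) and iSPN (blue), filled where called. A hash after the gene marks an interaction with adjusted p under 0.05, as for Lss (-1.30 in dSPN and 0.21 in iSPN) and Srebf2 (0.72 and -0.80).

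The lesion alone, relative to mock, moved few members. The lesioned saline arrays of this comparison are the same arrays that the levodopa groups were set against, so its differences and those of levodopa share samples. In dSPN, Hmgcs1 had 10.89, 11.26 and 11.49 with lesion and 11.35, 11.53 and 11.71 with mock, and 9 of 11 lesion arrays lay below every mock array. Its difference was -0.35 ± 0.08 (SE; adjusted p = 0.00457), with 3 of 4 probe sets called. Idi1 was 7.40, 7.96 and 8.55 with lesion and 7.93, 8.51 and 8.81 with mock, -0.46 ± 0.13 (SE; adjusted p = 0.033), with both probe sets called and 3 arrays below all mock arrays. Srebf2 was 6.23, 7.47 and 8.15 with lesion and 7.08, 8.02 and 8.88 with mock, -0.70 ± 0.20 (SE; adjusted p = 0.0362), with wide overlap and 1 of 2 probe sets called. Lss, Abca1 and Cyp51, called with levodopa, were not called with the lesion (-0.24, 0.67 and -0.43).

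Of these 3 dSPN calls, Srebf2 was lost in 5 of 14 other settings, and Hmgcs1 and Idi1 in 1 each. Without the array of each group least like its own group, its lesion difference was -0.49 (adjusted p = 0.16), and with run as a block -0.56 (adjusted p = 0.523). Hmgcs1 (-0.41) and Idi1 (-0.63) stayed called with the block. In the 1 run that held both groups (5 against 4 arrays) Hmgcs1 was -0.38, Idi1 -0.66 and Srebf2 -0.58, none called.

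In iSPN the lesion gave lower Hmgcs1, 11.36 ± 0.33 with lesion (n = 7) and 11.66 ± 0.17 with mock (n = 10), -0.30 ± 0.09 (SE; adjusted p = 0.0304), with 1 of 4 probe sets called. Lss was 8.31 ± 0.52 with lesion and 8.99 ± 0.63 with mock, -0.68 ± 0.22 (SE; adjusted p = 0.0438), and its groups overlapped in all but 1 lesion array. Srebf2 was 0.60 in iSPN (adjusted p = 0.103), and its lesion effect differed between the lines by -1.29 ± 0.30 (SE; adjusted p = 0.00287), the only member called there (4.86% of all genes). That difference with run as a block was -1.48 (adjusted p = 0.0905), not called. Its probe sets did not agree in iSPN, with 0.60 and -0.13. Only 1 iSPN saline array shared a run with most mock arrays, so no value within a run could be had. With run as a block Lss was -0.51 (adjusted p = 0.734).

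**Figure D5:**
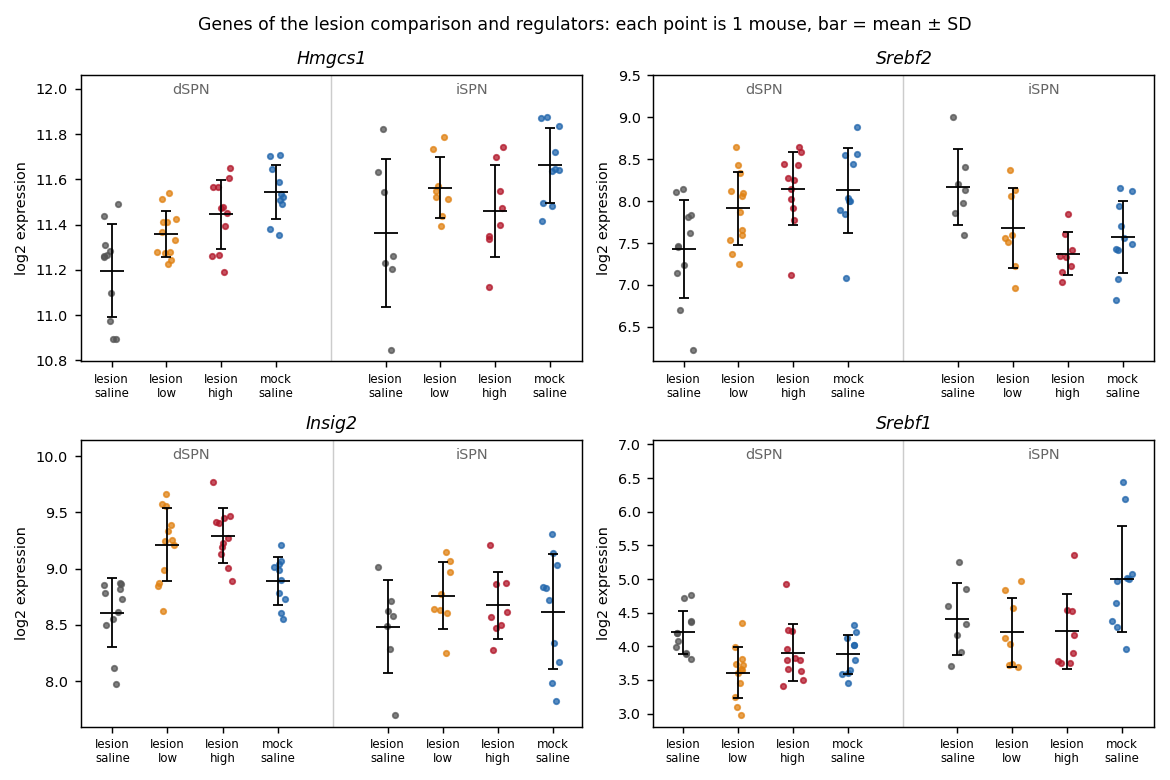
Log2 expression of Hmgcs1, Srebf2, Insig2 and Srebf1 in each array (points, 1 mouse each) by line, lesion and drug, with the group mean and SD as bars. Hmgcs1 lies lower with lesion and saline than with mock lesion in both lines, 11.20 ± 0.20 against 11.54 ± 0.12 in dSPN.

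The levodopa groups were also set against mock, a difference of lesion and drug together. At the high dose 9 members were called (43.4% of all genes) and at the low dose 8 (30.2%). Pmvk was 1.08 and 1.43, Idi1 0.81 and 1.16, Sc5d 1.14 and 1.29 and Mvd 0.54 and 0.40 at the low and high dose. Lss was -1.26 and -1.55, Scap -0.63 and -0.79 and Abca1 -1.05 and -1.29, all called. Cyp51 (0.71) and Insig2 (0.41) were higher at the high dose, and Insig1 (-0.43) was lower at the low dose. Srebf2 and Hmgcs1, called against saline at the high dose, were not called against mock (0.02 and -0.10). With run as a block 6 of the 9 stayed called at the high dose and 6 of the 8 at the low dose. With the oligodendrocyte mean as a covariate 6 also stayed called at each dose. That mean averaged 7.04 with mock, 6.24 at the low dose and 6.09 at the high dose in dSPN. In iSPN 6 members were called at each dose, beside 18.7% of all genes at the high dose and 11% at the low dose. Mvd (0.81 and 1.20), Fdft1 (0.38 and 0.56), Pmvk (0.48 and 0.42) and Cyp51 (0.64 and 0.60) were higher at both doses, and Srebf1 was lower (-0.79 and -0.78). Ebp was higher at the high dose (0.85) and Scap lower at the low dose (-0.53). Oligodendrocyte markers were called lower for 8 of 13 at the high dose there. Most iSPN mock arrays came from a run with 1 lesioned array, and with run as a block 1 member was called at the high dose and 0 at the low dose. Between the doses 0 members were called in iSPN (limma, 2 higher at an unadjusted p under 0.05), where 0.173% of all genes were.

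Without a lesion the lines differed in 5 members, where 22.5% of all genes were called. On mock arrays Srebf1 ranged over 3.46 to 4.31 in dSPN and 3.97 to 6.44 in iSPN (n = 10 each), -1.12 ± 0.22 (SE; adjusted p = 5.47e-05). Abca1 averaged 5.21 ± 0.93 in dSPN against 6.20 ± 0.97 in iSPN, that is -0.996 ± 0.33 (SE; adjusted p = 0.0216), and Mvd 6.43 ± 0.32 and 6.85 ± 0.34, -0.42 ± 0.15 (SE; adjusted p = 0.0363). Cyp51 (0.55) and Srebf2 (0.56) were higher in dSPN. Oligodendrocyte markers were called lower in dSPN for 10 of 13, and with their mean as a covariate Abca1 was -0.24 (adjusted p = 0.74), Srebf2 0.43 and Cyp51 0.52, none called. Since the lines had no run in common, a run effect and a line effect cannot be told apart.

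Genes on the edges of the pathway were read from 6 lists, whose counts stand beside the 45.6% of all genes called. Of 13 prenyl branch genes 4 were higher and 3 lower at the high dose in dSPN. Nus1, a subunit of the dehydrodolichyl diphosphate synthase, was 10.73 ± 0.16 at the high dose and 9.68 ± 0.20 with saline (n = 11 each), 1.05 ± 0.08 (SE; adjusted p = 3.08e-19), and Fnta, the shared alpha subunit of the farnesyl and geranylgeranyl transferases, was lower at -0.75 ± 0.09 (SE; adjusted p = 2.71e-10). Rabggta, a subunit of the Rab geranylgeranyl transferase (0.68), and Rce1, a protease that trims prenylated proteins (0.61), were higher. Of 10 genes of SREBP processing and reductase turnover 1 was higher and 5 lower. The proteases that release the SREBPs both fell, Mbtps1, the site-1 protease, at -1.21 ± 0.12 (SE; adjusted p = 1.85e-14) and Mbtps2, the site-2 protease, at -0.65 ± 0.17 (SE; adjusted p = 0.0014), while the ubiquitin ligase Rnf139 was higher (0.50).

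Among 15 other SREBP target lipid genes 0 were higher (2 at an unadjusted p under 0.05) and 6 lower at the high dose in dSPN (limma). Scd2, a stearoyl-CoA desaturase, averaged 9.24 ± 0.21 at the high dose and 10.13 ± 0.24 with saline (n = 11 each), -0.89 ± 0.09 (SE; adjusted p = 3.98e-13), and Fads1, the delta-5 desaturase, 8.49 ± 0.34 and 9.44 ± 0.18, -0.95 ± 0.11 (SE; adjusted p = 3.57e-11). Neither gene's groups overlapped. Lpin1 (-1.06) and Scd1 (-0.71) were also lower. Of 13 liver X receptor and export genes 0 were higher (limma, also 0 at an unadjusted p under 0.05) and 5 lower. They included the receptors Rxra (-0.87) and Rxrb (-0.40), the transporter Abcg4 (-0.58) and the lipid carrier Apoe (-0.46). Apoe and Scd2 are abundant in glia, and the glial markers were lower in the same arrays. The part of glial RNA in the Apoe and Scd2 differences was not tested.

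Of 16 uptake, storage and transfer genes 2 were higher and 5 lower at the high dose in dSPN. Gramd1b, an Aster protein that carries cholesterol from the plasma membrane to the endoplasmic reticulum, was 9.39 ± 0.17 at the high dose and 8.53 ± 0.17 with saline (n = 11 each), 0.87 ± 0.10 (SE; adjusted p = 4.55e-12), with no overlap. In iSPN it was lower, 8.69 ± 0.17 at the high dose (n = 8) and 9.15 ± 0.14 with saline (n = 7), -0.46 ± 0.12 (SE; adjusted p = 0.00526). The difference between the lines was 1.33 ± 0.15 (SE; adjusted p = 5.26e-11). Lrp1 (-0.71), Osbpl2 (-0.53) and Stard5 (-0.62) were lower in dSPN. Of the 2 other sterol enzymes tested, Acat1 was -0.17 in dSPN. Besides Gramd1b, the genes of these lists called at the high dose in iSPN were Rabggtb (0.43), Gpam (-0.59), Fads1 (-0.40), Apoe (-0.53) and Rxrb (0.39).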

How the data were processed

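RNA from 77 single-mouse TRAP captures was hybridised to Affymetrix mouse arrays, per the labels. The authors deposited 1 log2 value per probe set and array, made with RMA and the affy package, per the submitters' processing notes; no version is given in the sources used here. RMA pulls the arrays to a common distribution, so differences are relative to all transcripts. Of 45101 probe sets, 34958 had a single symbol in the platform annotation, and the 932 with several and 9211 with none were not used. Each gene was read from its probe set with the highest mean, the 40th percentile of probe set means (3.55) was the filter, and 13271 of 18194 genes were tested. All 8 groups were fitted together with limma 3.58.1 in R 4.3.3 (lmFit and eBayes, 69 residual degrees of freedom), with Benjamini-Hochberg adjustment per comparison. A second fit over 23974 single-symbol probe sets gave the probe set results. The members and lists were chosen with earlier results of these data known. All members were named, and of each other list up to 4 called genes with the largest high-dose change in each line. Array-to-array correlation within groups had medians of 0.964 to 0.987. The number of arrays limits the precision, and no count or depth exists for arrays. The fit was tested on simulated data. Alternatives covered normalization, filters, probe sets, array weights, the prior, glial marker means, runs, each line alone and the least correlated arrays. Figures were drawn with matplotlib 3.10.9.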

Additional observations from a re-analysis of the deposited data

Results flagged for a closer look

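Groups of at most 10 arrays were tested for an array apart from the rest, that is the 4 iSPN groups and the dSPN mock group, while the 3 lesioned dSPN groups were too large for the test. It picked out 6 of 135 gene and group combinations, and chance alone gives about 1 in 20. They lay in iSPN groups, which made up 4 of the 5 tested. Mvd had its lowest low-dose array at 6.65, below the others of a group called higher than saline. Fdps had a lowest high-dose array at 5.32, Sqle a highest low-dose array at 7.42 and Scap a lowest array at 6.65 with lesion and saline. Tm7sf2 had a lowest low-dose array at 3.42 and a highest high-dose array at 6.23.

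The effects of the lines differed by a tested interaction term, dSPN minus iSPN, in 13 cases (limma, adjusted p under 0.05). For the lesion this was Srebf2, at -1.29. At the low dose it was Idi1 (0.95), Pmvk (0.61), Srebf2 (0.97), Lss (-1.51) and Abca1 (-1.78). At the high dose it was Idi1 (1.17), Pmvk (1.03), Cyp51 (0.75), Srebf2 (1.51), Fdft1 (-0.43), Lss (-1.51) and Abca1 (-1.37). The oligodendrocyte marker mean and the run moved with line and drug, and several of these calls were lost with one or the other as a term, as the results above give by gene.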

How the results depend on the processing

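Of 5525 single-gene values under other settings, 5006 kept direction and side of the threshold, 142 lost a call and 90 gained one. None turned its direction where the gene was called, while 287 values changed sign and were called in neither fit. For high-dose levodopa against saline in dSPN, Idi1, Pmvk, Cyp51, Lss, Insig2, Mvd and Sc5d were called in every alternative. Abca1 was called in every alternative that tested it, but the 60th percentile filter left it out. Hmgcs1 and Scap were lost with quantile normalization (0.18, adjusted p = 0.065, and -0.35, adjusted p = 0.056). Within the shared run Stard4, Srebf2 and Hmgcs1 were lost and Npc1 was gained (-0.70, adjusted p = 0.0272). Counts of called members over 1.5 times from the main count were as follows, with the main count in parentheses. The share of all genes called is given for the main fit only. Member counts under other settings, here and above, are therefore not read as results about the sterol genes. With run as a block, low against saline in dSPN gave 4 (11), high against low in dSPN 0 (1), lesion in iSPN 1 (2), low against saline in iSPN 2 (1), high against mock in iSPN 1 (6), low against mock in iSPN 0 (6), and the lesion, high-dose and low-dose interactions 0 (1), 4 (7) and 2 (5). Within 1 run, lesion in dSPN gave 0 (3), high against saline in iSPN 1 (3) and low against saline in iSPN 0 (1). With run as a random block, high against low in dSPN gave 4 (1) and high against saline in iSPN 6 (3). With the oligodendrocyte mean, low against saline in dSPN gave 5 (11), high against low in dSPN 2 (1), low against saline in iSPN 2 (1), high against mock in iSPN 3 (6), the low-dose interaction 2 (5) and the mock line comparison 3 (5). With the astrocyte mean, high against low in dSPN gave 3 (1), lesion in iSPN 1 (2), the low-dose interaction 3 (5) and the line comparison 2 (5). With each line alone, high against low in dSPN gave 4 (1), lesion in iSPN 0 (2), low against saline in iSPN 0 (1), high against mock in iSPN 2 (6) and low against mock in iSPN 1 (6). With the mean of probe sets, high against low in dSPN gave 2 (1), high against saline in iSPN 6 (3), low against saline in iSPN 3 (1) and the line comparison 3 (5). With the 60th percentile filter the same 4 comparisons gave 2 (1), 5 (3), 2 (1) and 3 (5). With array weights, high against low in dSPN gave 3 (1), lesion in iSPN 0 (2) and the line comparison 3 (5). Without the least correlated array of each group, lesion in iSPN gave 1 (2) and the line comparison 2 (5). With no filter lesion in iSPN gave 1 (2), and quantile normalization and a trended prior each gave 2 (1) for low against saline in iSPN. The causes were not tested. No paired analysis was possible because each array's title number is its own and no group shares numbers with another. Signal over background is not given with these values. Low levels, such as those of Srebf1 and of Abca1 in the dSPN dose groups, therefore have no detection call.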
